A study of Danio rerio with 23 samples.

Results

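Oligo-Fucoidan before 40 Gy in wild-type liver was examined on 4 of the 23 liver arrays of the series, chosen by their titles. They were 2 arrays of wild-type (WT) fish given Oligo-Fucoidan and 40 Gy (OF + R) and 2 arrays of WT fish given 40 Gy without the agent (R). Both groups belonged to the first batch, were AB strain fish on a normal diet, carried no transgene and were 6 months old by the labels. The OF + R fish received Oligo-Fucoidan at 300 mg/kg by oral gavage over a month before the irradiation and several more times in the weeks after it, so the doses given before and after irradiation cannot be told apart. The R fish are labelled as mock without the agent. All fish in both groups were irradiated. The labels call the source gamma rays, while the study's methods name gamma irradiation in one place and X-rays in another. The sex of the WT fish is not stated. Neither the labels nor the methods say whether an array holds the RNA of 1 animal. Standard errors and p-values therefore measure a spread between arrays, pooled over all groups of the series, which may be technical.

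Each array gives a log2 signal for 75212 probe sets. Of these, 29528 carried a gene symbol of their own, and they stood for 20667 genes, each taken at its brightest probe set. All 20667 genes were described. The effect in WT fish was set beside that in female HBx,src fish of the same batch and dose (4 OF + R and 3 R arrays). The HBx,src fish express HBx and src from the hepatocyte promoter of fabp10a and had diet-induced obesity (DIO). The WT effect was also set beside that in WT fish at 10 Gy in the second batch (2 OF + R and 2 R arrays). The remaining arrays were of female HBx,src,p53- DIO fish at 10 Gy in the second batch (5 OF + R and 3 R arrays). They entered the pooled fit and the choice of brightest probe set, and their own effect is not described.

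Fucoidans are sulfated, fucose-rich polysaccharides of brown seaweed, and Oligo-Fucoidan is a low molecular weight preparation of them. Ionizing radiation breaks DNA and raises oxygen radicals, which cells answer with p53 target genes, repair proteins and glutathione. In liver, hepatocytes make bile acids, lipoproteins and most plasma proteins under factors such as Hnf4a, while resident macrophages take up particles and dying cells.

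The 4 arrays looked like liver. The hepatocyte fatty acid-binding protein gene fabp10a had log2 signals of 12.48 and 12.17 in OF + R and 11.85 and 12.54 in R, and 33 hepatocyte markers averaged 11.5 to 11.7 in OF + R and 11.2 to 11.7 in R. The germ cell gene dazl was below the median of all probe sets on every array, and ovary and oocyte markers averaged 2.31 in both OF + R arrays and 2.23 to 2.38 in R, so no array stood apart by ovary RNA. Exocrine pancreas genes, which encode digestive enzymes made outside hepatocytes, were dimmer in OF + R. The 34 of them averaged 3.12 and 3.57 in OF + R and 3.83 and 4.78 in R, and their part in the results was not tested. The median signal of an array was 2.04 to 2.07 in OF + R and 2.19 to 2.21 in R. Pairs of arrays correlated over all probe sets at 0.942 within OF + R, 0.898 within R and 0.887 to 0.918 between the groups, so the R arrays were no closer to each other than to some OF + R arrays. In 2324 genes (11.2%) the OF + R arrays and in 2845 genes (13.8%) the R arrays lay more than 1 log2 unit apart.

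In WT liver at 40 Gy the called genes were mostly higher with Oligo-Fucoidan. At an adjusted p under 0.05, 840 genes (4.06% of those tested) were higher and 156 (0.755%) were lower in OF + R than in R. Over all genes the median log2 fold change was 0.07 and 54.8% were positive. Over probe sets above the median signal the median was 0.19, against -0.08 over all probe sets. The gene lists below are set beside all genes, dim ones included, and the part of signal level was not tested. The called higher genes had a median log2 fold change of 1.44, and 149 of them rose by 2 or more. The called lower genes had a median of -0.99, and 15 of them fell by 2 or more. Most of the higher genes were well expressed, with 761 above the median signal on all 4 arrays, whereas 102 of the 156 lower genes were below the median on both OF + R arrays, where the size of a change is uncertain. Genes with provisional names made up 66 of the higher and 27 of the lower genes and are only counted here. With the thresholds that the study's methods name (fold change 2 or above, unadjusted p under 0.05), 1970 genes (9.53%) were higher and 280 (1.35%) lower. At an unadjusted p under 0.05 and any fold change, 4713 of the 20667 genes passed, counting both directions. List counts at that threshold below are to be read beside this. The groups did not overlap in 49.4% of all genes, so a gene without overlap is not in itself a result. All 840 higher and all 156 lower genes were without overlap, so separation of the arrays adds nothing to a call.

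How many genes were called changed when single arrays were left out. Each omission leaves 1 array in a group, so a call can be lost with little change in the fold. All 840 higher and all 156 lower genes kept their direction in each omission. A lost call below is therefore not in itself a sign that a gene depends on that array. Without replicate 2 of OF + R, 127 genes were higher and 21 lower, and without replicate 1 of R the counts were 417 and 205. Without replicate 1 of OF + R they were 1021 and 93, and without replicate 2 of R 1099 and 392. Of the 840 higher genes 77, and of the 156 lower genes 16, were called whichever of the 4 arrays was left out. limma fitted to the 4 arrays alone called 0 genes (2673 at an unadjusted p under 0.05). The calls and the standard errors given here use the spread pooled over all groups of the series. They are not the precision of the 4 arrays by themselves. Scaling moved the balance of directions, with 84.3% of called genes higher as deposited, 93.9% after centring each array on its median and 65.3% after quantile normalization over all arrays.

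**Figure D1:**
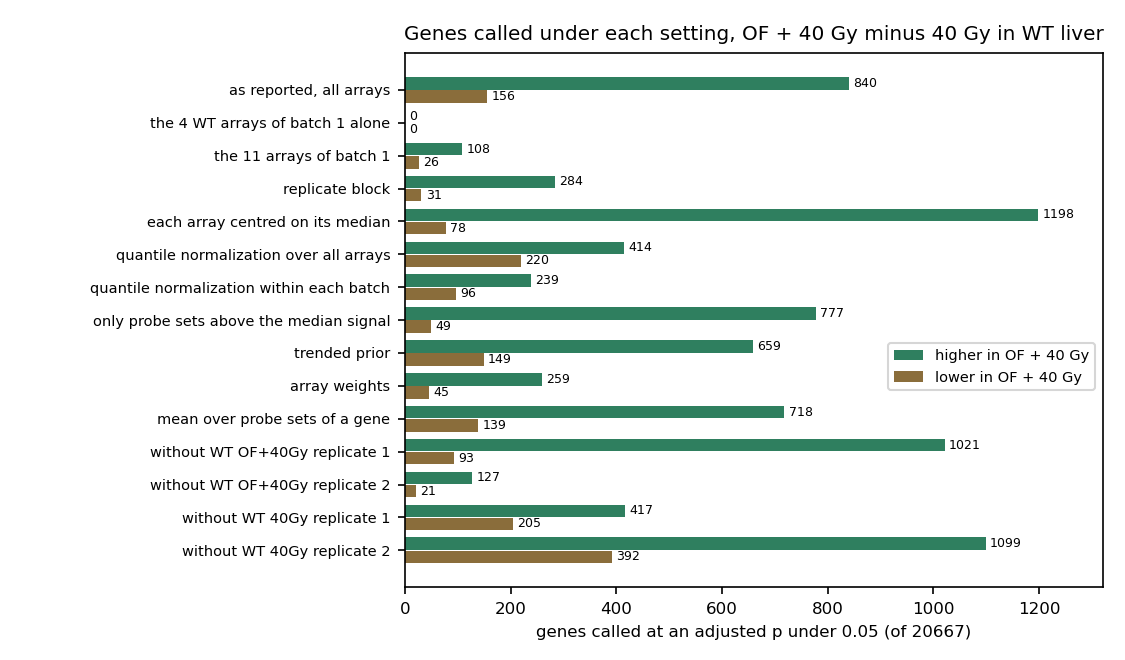
Genes called higher (green) and lower (brown) in OF + R than in R at an adjusted p under 0.05, in WT liver at 40 Gy, for the reported fit and for the alternatives in arrays, scaling, filter, prior, weights and probe set rule. Among the settings drawn, counts of higher genes run up to 1198 with each array centred and down to 0 with the 4 arrays alone, and to 127 without replicate 2 of OF + R.

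Of the 15 largest increases in genes with a settled name, the first was mfap4.2, a member of the microfibril-associated protein 4 family used to mark zebrafish macrophages, with log2 signals of 8.63 and 8.73 in OF + R and 3.98 and 3.85 in R. The replicates lay close together in both groups, and limma gave a log2 fold change of 4.76 with a standard error of 0.91 (adjusted p = 0.010, and 0.092 without replicate 2 of OF + R). c1ql4l, which encodes a C1q-like secreted protein, had 9.38 and 9.92 in OF + R and 7.83 and 2.1 in R. Its fold change of 4.68 (adjusted p = 0.030) leaned on the dim R array and was not called without replicate 2 of R (adjusted p = 0.14), without replicate 1 of OF + R (0.066) or without its replicate 2 (0.22). cfbl, which encodes a protein like complement factor B of the alternative pathway, had 6.72 and 5.73 in OF + R and 3.19 and 1.68 in R. Every OF + R array was above every R array by over 2 log2 units, and the call of 3.79 (standard error 0.70, adjusted p = 0.0079) held whichever array was left out.

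igfbp5b, mctp2b and ppp1r14ab rose with little dependence on single arrays. igfbp5b encodes a binding protein that holds insulin-like growth factors outside the cell, and it had 6.81 and 6.49 in OF + R and 3.21 and 3.29 in R (3.40, standard error 0.45, adjusted p = 0.0012). mctp2b, which encodes a membrane protein with calcium-binding C2 domains, had 5.66 and 6.98 in OF + R and 3.22 and 2.78 in R (3.32, standard error 0.45, adjusted p = 0.0014). ppp1r14ab, which encodes an inhibitor of protein phosphatase 1, had 4.24 and 4.80 in OF + R and 1.27 and 1.51 in R (3.13, standard error 0.22, adjusted p = 1.9e-06). The OF + R values of ppp1r14ab were moderate and both R values were below the array medians, so its fold is uncertain in size. The other members of the 15 were mtmr7a (3.77), which encodes a phosphoinositide phosphatase, slc25a33 (3.21), which encodes a mitochondrial carrier of pyrimidine nucleotides, olmf4l1 (3.95), tmem176l.4 (3.14) and the genes cetp, fads2, ccl34a.4, mpeg1.2 and grna.1, which are described with their lists. For mtmr7a, slc25a33, olmf4l1 and tmem176l.4 the adjusted p without replicate 2 of OF + R was 0.083 to 0.25. olmf4l1 was also lost without replicate 1 of OF + R (0.082) or replicate 2 of R (0.13), and mtmr7a (0.065) and slc25a33 (0.11) without replicate 1 of R. 1 gene with a provisional name rose more than mfap4.2, LOC100150882, with 5.80 and 7.09 in OF + R and 1.71 and 1.46 in R (4.86, adjusted p = 3.4e-07), and it is named here after its values were seen.

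The 15 largest decreases were taken by the same rule. epha3, which encodes an ephrin receptor tyrosine kinase, had 1.81 and 2.08 in OF + R and 7.26 and 6.65 in R. It was near the array median with Oligo-Fucoidan and well expressed without, and fell by 5.01 on the log2 scale (standard error 0.95, adjusted p = 0.010, and 0.075 without replicate 2 of OF + R). tlr18, a Toll-like receptor gene of fish, had 3.24 and 3.78 in OF + R and 6.28 and 7.16 in R. It fell by 3.21 (standard error 0.34, adjusted p = 0.00020) and stayed called whichever array was left out. phlda2, a gene that restrains growth of the placenta in mice, had 6.74 and 3.66 in OF + R and 9.13 and 8.08 in R. It fell by 3.40 (standard error 0.66, adjusted p = 0.011). All 4 of its probe sets were called lower, but they are not separate measurements. Other probe sets repeated the values of the brightest (-3.40, standard error 0.66), and the remaining one had -3.16. The OF + R arrays of phlda2 were 3 log2 units apart, and its call rested on replicate 2 of OF + R and on replicate 1 of R.

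The others of the 15 are given with fewer values. adm2b, which encodes a vasodilator peptide of the adrenomedullin family, had 2.62 and 1.80 in OF + R and 6.07 and 6.52 in R, and s100a1, which encodes a calcium-binding protein, had 2.22 and 1.73 in OF + R and 4.88 and 5.16 in R. Both were called lower whichever array was left out. edn1, which encodes the vasoconstrictor endothelin-1, had 2.21 and 2.09 in OF + R and 5.35 and 2.98 in R (-2.02, adjusted p = 0.046). The gap of edn1 came mostly from replicate 1 of R, and without that array the adjusted p was 0.38. It was 0.11 without replicate 1 and 0.27 without replicate 2 of OF + R. stc2b, which encodes a stanniocalcin, had 2.12 and 1.82 in OF + R and 3.11 and 4.75 in R (-1.95, adjusted p = 0.022), and slc16a3b, which encodes a lactate transporter, had 1.64 and 1.52 in OF + R and 3.13 and 4.79 in R (-2.38, adjusted p = 0.012). Here replicate 2 of R was the brighter array, and without it the adjusted p was 0.15 for stc2b and 0.068 for slc16a3b, against 0.19 and 0.10 without replicate 2 of OF + R. GRTP1A, named for its regulation by growth hormone in mammals, had 2.81 and 2.6 in OF + R and 5.16 and 4.21 in R (-1.98, standard error 0.29, adjusted p = 0.0018), called in every omission. The rest were shroom2b (-2.75), pimr213 (-2.74), fthl28 (-1.92) and ippk (-1.85), of which ippk was called under none of the 4 omissions and the others had adjusted p values of 0.11 to 0.29 without replicate 2 of OF + R (shroom2b also 0.12 without replicate 2 of R), and mb and slc4a1a, described with the markers.

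**Figure D2:**
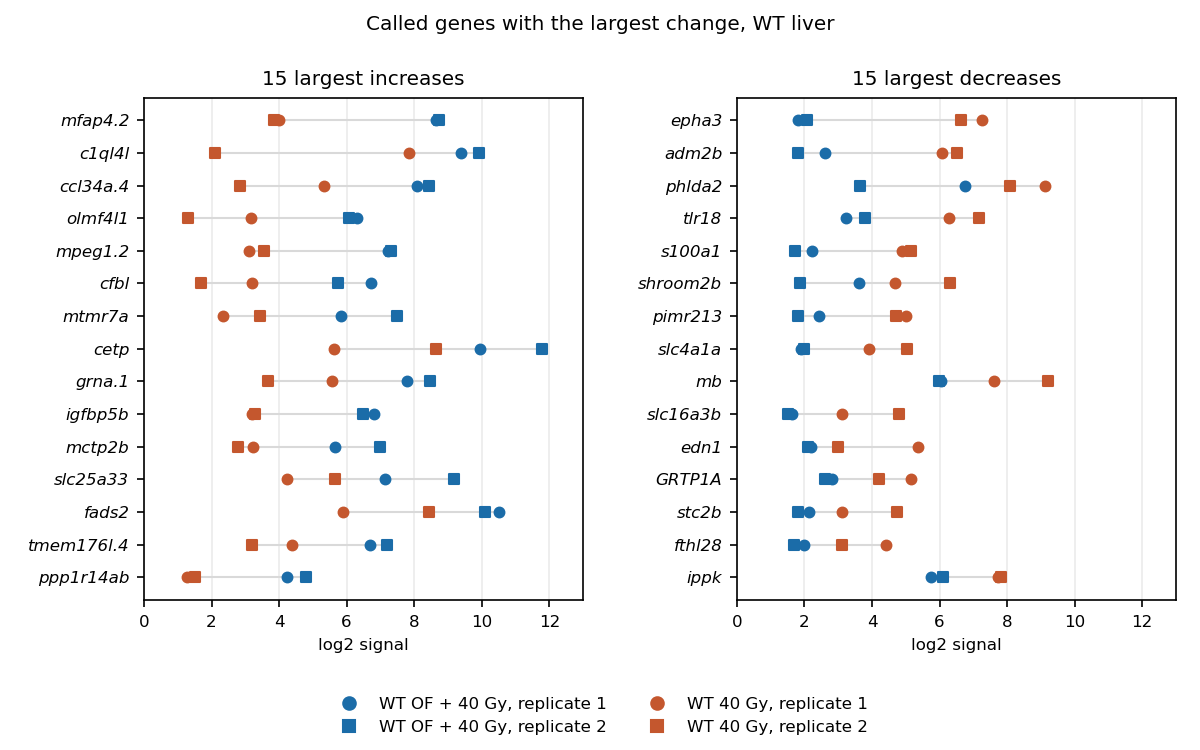
Log2 signal of the 15 called genes with the largest increase (left) and the 15 with the largest decrease (right) in WT liver, 1 point per array, blue for OF + R and orange for R, circles for replicate 1 and squares for replicate 2. The groups do not overlap in any of these genes, as the rule for naming them required, and the R arrays of c1ql4l stand wide apart, at 7.83 and 2.1, while those of mfap4.2 nearly coincide.

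Some macrophage markers rose with Oligo-Fucoidan. Of 33 measured, 5 were called higher (15.2%, against 4.06% of all genes) and 0 lower, 26 had a positive log2 fold change, and their median was 1.09 against 0.07 over all genes. In 20 of the 33 the groups did not overlap and OF + R was the brighter, as in 28.3% of all genes, and in 5 of them R was the brighter. Their mean log2 signal was 4.62 and 5.00 in OF + R and 3.61 and 3.39 in R. These R arrays were dimmer for the list than the arrays of any other group of the series. HBx,src DIO R arrays had 3.98 to 4.32 and WT R arrays at 10 Gy had 4.04 to 4.25. mpeg1.2, which encodes a pore-forming protein of the phagosome, had 7.22 and 7.31 in OF + R and 3.11 and 3.55 in R (3.93, standard error 0.81, adjusted p = 0.015). ccl34a.4, a chemokine gene, had 8.09 and 8.44 in OF + R and 5.33 and 2.83 in R (4.18, standard error 1.01, adjusted p = 0.033), and grna.1, a granulin gene whose product acts in lysosomes, had 7.78 and 8.47 in OF + R and 5.57 and 3.66 in R (3.51, standard error 0.83, adjusted p = 0.030). In both genes the R arrays differed from each other by more than the OF + R arrays did. The fifth was mfap4.1 (2.42, adjusted p = 0.049), named outside the rule. Other markers of the lineage were less clear. cybb, the phagocyte oxidase subunit, had 5.67 and 4.99 in OF + R and 3.05 and 3.05 in R with an adjusted p just above the threshold, csf1ra, the receptor for the macrophage growth factor, had 4.85 and 5.45 in OF + R and 4.05 and 2.94 in R (adjusted p = 0.25), and spi1b, a myeloid transcription factor, had 4.64 and 7.00 in OF + R and 3.24 and 3.04 in R (adjusted p = 0.054). csf1ra and spi1b were looked at after their values were seen. Of the 33 markers 0 were called without replicate 2 of OF + R, where the median was 0.88, and with each other array left out 3 were called higher and the median was 1.11 to 1.3. Omitting replicate 2 of R, 1 of them was called lower. ccl34a.4 and grna.1 were lost without replicate 1 of OF + R (0.076 and 0.055) or replicate 2 of R (0.18 and 0.15), and mpeg1.2 without replicate 1 of R (0.062). Several of these genes belong to families of near-identical copies that probe sets may not tell apart. In whole liver, more cells of a type and more RNA per cell cannot be told apart.

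Neutrophil markers showed 3 of 23 called higher (13%, against 4.06% of all genes) and 0 lower, with a median of 0.56. fcer1gl, which encodes a signalling chain of Fc receptors shared with other myeloid cells, had 6.61 and 6.43 in OF + R and 3.23 and 3.57 in R (3.12, standard error 0.58, adjusted p = 0.0085). adam8a, a membrane protease gene, had 5.35 and 5.60 in OF + R and 2.82 and 2.78 in R (2.68, adjusted p = 0.025), and padi2, which encodes an enzyme that converts arginine to citrulline in proteins, had 3.87 and 4.16 in OF + R and 2.43 and 2.42 in R (1.59, adjusted p = 0.0095). Replicates were tight and the groups were far apart in all of these genes. The log2 fold change of adam8a was 2.56 to 2.80 with each array left out. By contrast the granule genes mpx and lyz did not rise in this way. The groups overlapped in mpx, and in lyz both OF + R arrays were dimmer than both R arrays. mpx, the neutrophil peroxidase, had 2.2 and 5.14 in OF + R and 2.52 and 2.02 in R, and lyz, the lysozyme of myeloid granules, had 2.29 and 2.06 in OF + R and 2.6 and 2.49 in R, both named after their values were seen. The adjusted p without replicate 2 of OF + R was 0.067 for fcer1gl, 0.19 for adam8a and 0.11 for padi2, and adam8a was called in none of the omissions.

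Lymphocyte, thrombocyte, vascular and inflammatory lists held few calls. Of 27 T and NK cell markers 0 were called (3 higher and 3 lower at an unadjusted p under 0.05), with a median of -0.17. Of 18 B cell markers 1 rose, btk, a kinase of the B cell receptor that myeloid cells also use, with 6.04 and 6.71 in OF + R and 3.55 and 4.86 in R (2.17, adjusted p = 0.025, and 0.25 without replicate 2 of OF + R and 0.18 without replicate 1 of R). Of 33 endothelial markers 1 rose, cdh5, the cadherin of vascular junctions, with 6.50 and 7.08 in OF + R and 5.1 and 5.39 in R (1.55, adjusted p = 0.017, and 0.21 and 0.076 without the same arrays). Of 17 thrombocyte markers 1 rose, plek, with 4.11 and 3.54 in OF + R and 1.85 and 2.41 in R, although its second probe set had a log2 fold change of -0.03 and it was called only without replicate 2 of R. A single called gene in lists of this size is close to the 4.06% of all genes. Of 47 inflammatory and NF-kB genes 1 rose, ticam1, the adaptor of Toll-like receptor signalling, with 5.80 and 5.58 in OF + R and 2.81 and 3.61 in R (2.48, standard error 0.37, adjusted p = 0.0025), called in every omission. Of 41 interferon and antigen presentation genes 0 were called (4 higher and 0 lower at an unadjusted p under 0.05).

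The glutathione and Nrf2 list had the most called members of the metabolic and defence lists. Of 35 genes, 6 rose (17.1%, against 4.06% of all genes) and 0 fell. Of them 30 were positive, against 54.8% of all genes, and the median was 0.68, against 0.07. gclc, which encodes the catalytic subunit for the first step of glutathione synthesis, had 4.93 and 5.01 in OF + R and 3.51 and 3.46 in R, with replicates nearly equal, and was called in every omission. gsr, the glutathione reductase, had 5.21 and 5.69 in OF + R and 3.96 and 3.95 in R (1.49, standard error 0.27, adjusted p = 0.0078). srxn1, sulfiredoxin, which repairs peroxiredoxins, had 5.77 and 5.18 in OF + R and 2.83 and 3.83 in R (2.14, standard error 0.45, adjusted p = 0.018), and ggt1b, which breaks down extracellular glutathione, had 3.43 and 4.48 in OF + R and 1.66 and 2.62 in R (1.82, adjusted p = 0.019). The groups were separate in each of these genes, as in every called gene. glrx, a glutaredoxin (1.28, adjusted p = 0.022), and keap1b, which holds Nrf2 in check (1.11, adjusted p = 0.030), were the other called members and are named outside the rule. Nrf2 targets known from mammals did not all go this way, as hmox1a, the haem oxygenase, had 5.07 and 3.83 in OF + R and 7.17 and 8.28 in R (adjusted p = 0.13) and nqo1 had 5.83 and 6.20 in OF + R and 6.44 and 5.41 in R, both looked at after their values were seen. Leaving out replicate 2 of OF + R, the calls of gsr (0.12), srxn1 (0.067) and ggt1b (0.27) were lost, and without replicate 1 of R those of srxn1 (0.12) and ggt1b (0.13). That of srxn1 was lost without replicate 1 of OF + R too (0.085).

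Genes of lipid supply held few calls. Of 27 apolipoprotein and lipoprotein assembly genes, 2 rose (7.41%, against 4.06% of all genes) and 0 fell with a median of 0.21. cetp, which encodes the plasma protein that moves cholesteryl esters between lipoproteins, had 9.94 and 11.77 in OF + R and 5.63 and 8.65 in R (3.72, standard error 0.89, adjusted p = 0.031). apobb.2, an apolipoprotein B gene, had 10.05 and 9.24 in OF + R and 6.77 and 7.48 in R (2.52, standard error 0.53, adjusted p = 0.019). The groups did not overlap, but replicates of cetp differed by more than 1 log2 unit in both groups. Of 41 genes of lipogenesis and triglyceride storage, 2 rose (4.88%) and 0 fell with a median of 0.54. fads2, the desaturase of polyunsaturated fatty acid synthesis, had 10.52 and 10.10 in OF + R and 5.90 and 8.42 in R (3.15, standard error 0.58, adjusted p = 0.0082), and elovl1b, a fatty acid elongase, had 5.48 and 6.40 in OF + R and 4.71 and 4.81 in R (1.18, adjusted p = 0.028), though its other probe set had -0.39. srebf1, which encodes the factor that drives lipogenesis, was not called at its brightest probe set (9.83 and 8.10 in OF + R and 7.74 and 8.45 in R), while its other probe sets were called with 1.59 and 2.08. Of 31 genes of sterol synthesis 0 were called (2 higher and 0 lower at an unadjusted p under 0.05) and the median was -0.16. The calls did not hold without replicate 2 of OF + R, where the adjusted p was 0.33 for cetp, 0.061 for apobb.2, 0.054 for fads2 and 0.37 for elovl1b. Without replicate 1 of R it was 0.25 for cetp, 0.096 for apobb.2 and elovl1b and 0.053 for fads2, and without replicate 1 of OF + R it was 0.094 for apobb.2. elovl1b was also lost without replicate 2 of R, just above the threshold (0.050).

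Fatty acid oxidation genes moved with single arrays, and 2.22% were called higher, against 4.06% of all genes. Of 45 genes, 34 were positive and the median was 0.64, but only decr2, a peroxisomal reductase for unsaturated fatty acids, rose, with 7.26 and 7.25 in OF + R and 5.90 and 5.70 in R (1.46, standard error 0.29, adjusted p = 0.012). fabp1a fell (1.68 and 1.48 in OF + R and 2.31 and 2.45 in R), both OF + R values being below the array medians, and was called in no omission. The mean log2 signal of the list was 5.67 and 7.27 in OF + R and 5.57 and 6.35 in R, so replicate 1 of OF + R lay with the R arrays, and the list's median was -0.22 without replicate 2 of OF + R and 1.37 without its replicate 1. pparab, which encodes the receptor that drives fatty acid oxidation, had 5.2 and 5.67 in OF + R and 7.02 and 6.98 in R (-1.57, adjusted p = 0.11). decr2 was not called without replicate 2 of OF + R (0.095).

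Amino acid and carbohydrate lists held few calls. Their shares called higher ran from 3.45% (carbohydrate) to 6.9% (proline, serine and asparagine synthesis), near the 4.06% of all genes. Of 74 genes of amino acid catabolism and the urea cycle 4 rose (5.41%) and 0 fell, 61 were positive and the median was 0.65. Under quantile normalization, over all arrays or by batch, 1 of the 74 was called higher and the median was 0.39. tat, tyrosine aminotransferase, had 12.07 and 12.04 in OF + R and 10.12 and 10.54 in R (1.73, standard error 0.32, adjusted p = 0.0085), and hgd, which acts later in tyrosine breakdown, had 9.17 and 10.07 in OF + R and 6.92 and 8.47 in R (1.92, adjusted p = 0.037). tat was among the brightest genes called, and its OF + R replicates were nearly equal. amdhd1 of histidine breakdown (1.88, adjusted p = 0.046) and acmsd of tryptophan breakdown (1.48, adjusted p = 0.040) were the other called members. aldh18a1 and pycr1b, which act in proline synthesis, were the called members of 29 genes of proline, serine and asparagine synthesis, with 5.5 and 5.64 in OF + R and 4.26 and 4.66 in R for aldh18a1 and 6.65 and 7.18 in OF + R and 5.25 and 4.55 in R for pycr1b. Of 43 amino acid transporters, slc7a6 (5.13 and 5.33 in OF + R and 3.11 and 3.47 in R, adjusted p = 0.0026) and slc3a1 (5.64 and 6.06 in OF + R and 3.45 and 2.55 in R, adjusted p = 0.0049) rose. Both genes encode subunits of transporters of basic amino acids, and the other probe set of slc3a1 had a log2 fold change of 0.10. gbe1b, the glycogen branching enzyme, had 8.44 and 9.72 in OF + R and 7.03 and 7.80 in R (1.67, adjusted p = 0.023), and gapdh of glycolysis had 12.19 and 12.95 in OF + R and 11.47 and 11.82 in R (0.92, adjusted p = 0.039), the only called members of 58 carbohydrate genes. Of all these genes, pycr1b and slc7a6 were called in every omission. For the others the adjusted p without replicate 2 of OF + R was 0.065 to 0.44. Without replicate 1 of R it was 0.14 to 0.33 for hgd, amdhd1, acmsd, aldh18a1, gbe1b and gapdh, and without replicate 1 of OF + R 0.056 for aldh18a1.

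gad1a and slc6a22.2 rose among 23 genes of GABA and glutamate metabolism (8.7%, against 4.06% of all genes), and slc32a1 fell. gad1a, glutamate decarboxylase, had 4.51 and 5.24 in OF + R and 2.16 and 1.36 in R, slc6a22.2, a transporter gene of the GABA and betaine family, had 7.57 and 8.76 in OF + R and 6.01 and 6.66 in R (1.83, adjusted p = 0.032), and slc32a1, the vesicular carrier of GABA in neurons, had 1.78 and 1.51 in OF + R and 3.00 and 2.17 in R (-0.94, adjusted p = 0.035). slc32a1 was below the median signal on both OF + R arrays and gad1a on both R arrays. The other probe sets of slc32a1 had -0.03 and 0.01. None of these calls held without replicate 2 of OF + R (adjusted p = 0.090 for gad1a, 0.37 for slc6a22.2 and 0.29 for slc32a1), nor did slc6a22.2 (0.16) and slc32a1 (0.27) hold without replicate 1 of R or slc32a1 without replicate 1 of OF + R (0.052).

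Transcription factors of hepatocytes were called more often than genes at large, a comparison not matched for signal. Like the other lists, this one was chosen with earlier results of these data known, so its share is not independent evidence. Of 33 factors, 5 rose (15.2%, against 4.06% of all genes) and 0 fell, 25 were positive and the median was 0.52. hnf1bb, a homeobox factor of hepatocyte and bile duct formation, had 7.57 and 8.62 in OF + R and 4.58 and 6.42 in R (2.59, standard error 0.55, adjusted p = 0.018). klf15, a factor of fasting metabolism, had 6.41 and 7.84 in OF + R and 3.78 and 5.54 in R (2.46, standard error 0.52, adjusted p = 0.018), and onecut1, which acts in liver and bile duct development, had 5.61 and 6.55 in OF + R and 3.92 and 4.60 in R (1.82, standard error 0.43, adjusted p = 0.029). In all 3 the R arrays kept the same order, replicate 1 being the dimmer. The other probe set of klf15 had 0.18 and that of onecut1 0.67. nr5a2, a nuclear receptor that controls bile acid synthesis, had 8.20 and 8.29 in OF + R and 6.03 and 7.31 in R (1.58, standard error 0.28, adjusted p = 0.0061), and hnf4a, the nuclear receptor of hepatocyte identity, had 8.13 and 8.29 in OF + R and 6.44 and 7.21 in R. OF + R replicates of nr5a2 and hnf4a were nearly equal. Other factors of the list went the other way without being called, as cebpa had 5.40 and 4.36 in OF + R and 8.74 and 5.90 in R (adjusted p = 0.14). None of the 5 was called without replicate 2 of OF + R (adjusted p = 0.066 for nr5a2 and 0.22 to 0.32 for the others), and without replicate 1 of R nr5a2 alone was called. hnf4a was also lost without replicate 1 of OF + R (0.065).

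Biliary markers gave 5 of 29 called higher (17.2%, against 4.06% of all genes) and 0 lower, with a median of 0.73. Under quantile normalization, over all arrays or by batch, 1 of the 29 was called higher, with medians of 0.51 and 0.37. Of the 5, hnf1bb and onecut1 are the factors above. alcama, an adhesion molecule gene of bile duct cells, had 5.42 and 5.61 in OF + R and 2.72 and 3.89 in R (2.21, adjusted p = 0.032), but its other probe set had -0.02. anxa4, an annexin gene of epithelia, had 9.09 and 9.77 in OF + R and 8.08 and 8.28 in R (1.24, adjusted p = 0.042). The fifth was lamb1a, a laminin gene (1.21, adjusted p = 0.048), named outside the rule. The list averaged 5.36 to 5.72 in OF + R and 4.72 to 4.86 in R, so the ranges did not overlap. Of the 29 markers 0 were called without replicate 2 of OF + R (0.22 for alcama and 0.39 for anxa4) and 0 without replicate 1 of R (0.20 and 0.15). alcama was also lost without replicate 1 of OF + R (0.074) and anxa4 without replicate 2 of R (0.063).

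**Figure D3:**
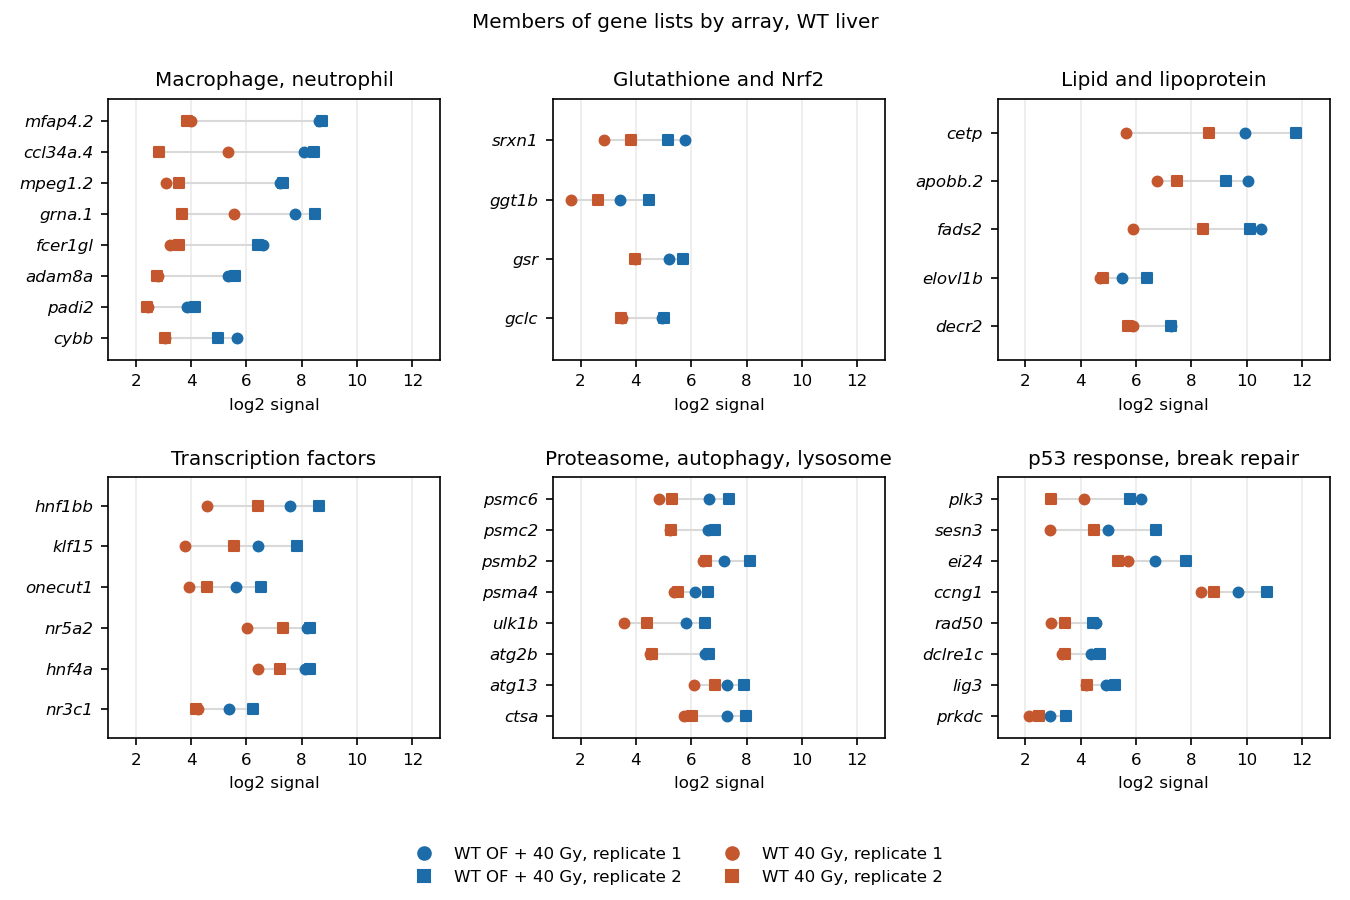
Log2 signal by array in WT liver for members of gene lists in 6 panels, blue for OF + R and orange for R, circles for replicate 1 and squares for replicate 2. All genes shown were called except cybb. Both OF + R points lie right of both R points in each gene, as they do in every gene called higher. Replicate 1 of R is the dimmer R array in 5 of the 6 transcription factors.

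Few plasma protein genes were called. The shares called higher ran from 0% (hepatocyte markers) to 5.88% (complement), against 4.06% of all genes. Of 33 hepatocyte markers 0 were called (6 higher and 0 lower at an unadjusted p under 0.05) and the median was 0.05, close to that of all genes. Of 30 coagulation genes, vtna, which encodes vitronectin, rose alone, with 10.20 and 10.36 in OF + R and 8.35 and 9.10 in R (1.56, standard error 0.30, adjusted p = 0.0099), and its second probe set rose by 2.00. The coagulation list had a median of 0.38, with 10 genes higher and 0 lower at an unadjusted p under 0.05. Of all 20667 genes, 4713 passed that threshold, counting both directions. Of 34 complement genes, cfbl and c5ar1 rose and 29 were positive with a median of 0.41 (8 higher and 1 lower at an unadjusted p under 0.05). c5ar1, the receptor for complement fragment C5a on myeloid cells, had 4.04 and 5.31 in OF + R and 2.32 and 1.95 in R (2.54, adjusted p = 0.040), while c3a.1, the central complement protein, had 13.35 and 13.12 in OF + R and 13.28 and 13.02 in R and is named after its values were seen. Of 38 acute phase and iron genes, the ferritin gene fth1a rose (9.23 and 9.72 in OF + R and 8.49 and 7.89 in R, adjusted p = 0.045) and the ferritin-like fthl28 fell, both of its OF + R values being below the array medians. Omitting replicate 2 of OF + R gave adjusted p values of 0.10 for vtna, 0.37 for c5ar1, 0.36 for fth1a and 0.11 for fthl28. vtna and fthl28 were also lost without replicate 1 of R (0.073 and 0.076), c5ar1 without either R array (0.085 and 0.11), and fth1a without replicate 2 of R (0.19) or replicate 1 of OF + R (0.053).

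Bile acid, drug and steroid genes gave calls in both directions. Their shares called higher ran from 1.64% (conjugating enzymes) to 8.82% (steroid hormone genes), against 4.06% of all genes. Of all genes 0.755% were called lower. abcb11b, a bile salt export pump gene of the hepatocyte canaliculus, had 9.69 and 9.85 in OF + R and 6.59 and 7.86 in R (2.54, standard error 0.43, adjusted p = 0.0049), whereas its paralogue abcb11a had 2.2 and 1.57 in OF + R and 4.47 and 2.72 in R (-1.7, adjusted p = 0.027) at far dimmer probes. With nr5a2 they were the called members of 30 bile acid genes, whose median was 0.38. Of 48 cytochrome P450 genes of families 2, 3 and 4, 34 were positive and the median was 0.77, yet 2 rose and 1 fell. These were cyp3c1 (9.13 and 9.07 in OF + R and 8.10 and 6.61 in R) and cyp2ad3 (7.03 and 7.93 in OF + R and 4.92 and 6.60 in R), both monooxygenases of drugs and lipids, and cyp2k20 (1.98 and 1.77 in OF + R and 3.37 and 3.38 in R), whose OF + R values were below the array medians. Of 61 conjugating enzymes, ugt2b6, a glucuronosyltransferase, rose (5.35 and 6.28 in OF + R and 2.87 and 3.44 in R, adjusted p = 0.034) and gstk2 fell. Of 34 steroid hormone genes 3 rose and the median was 0.00. cyp17a2, a steroid hydroxylase, had 5.25 and 6.82 in OF + R and 3.43 and 2.87 in R, nr3c1, the glucocorticoid receptor, had 5.39 and 6.25 in OF + R and 4.25 and 4.17 in R (1.61, standard error 0.29, adjusted p = 0.0077), and hsd11b1lb, a hydroxysteroid dehydrogenase gene, had 9.38 and 10.85 in OF + R and 6.85 and 8.84 in R (2.27, standard error 0.47, adjusted p = 0.017). cyp17a2 alone was called in every omission, and without replicate 2 of OF + R the adjusted p of the others was 0.054 (abcb11b) to 0.36 (cyp2ad3). abcb11a (0.22), cyp2ad3 (0.30), ugt2b6 (0.14), gstk2 (0.065) and hsd11b1lb (0.12) were also lost without replicate 1 of R, cyp3c1 without replicate 1 of OF + R (0.13) or replicate 2 of R (0.30), and cyp2k20 in each omission.

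Some genes of the p53 response rose, and none of the apoptosis list was called. Of 30 p53 response genes 4 rose (13.3%, against 4.06% of all genes) and 0 fell, 23 were positive and the median was 0.49. Under quantile normalization, over all arrays or by batch, 1 of the 30 was called higher and the median was 0.28. ccng1, cyclin G1, a direct p53 target in mammals, had 9.70 and 10.75 in OF + R and 8.35 and 8.81 in R (1.64, standard error 0.35, adjusted p = 0.019), and its second probe set rose by 2.35. plk3, a stress kinase gene, had 6.17 and 5.77 in OF + R and 4.12 and 2.93 in R (2.44, adjusted p = 0.034), ei24 had 6.70 and 7.80 in OF + R and 5.71 and 5.33 in R (1.73, adjusted p = 0.027), and sesn3, a sestrin that restrains mTOR signalling, had 4.97 and 6.72 in OF + R and 2.89 and 4.48 in R (2.16, adjusted p = 0.046). The groups were close in sesn3, where the dimmer OF + R array lay just above the brighter R array. cdkn1a, the cell cycle inhibitor induced by p53, had 6.27 and 5.12 in OF + R and 4.42 and 3.70 in R (adjusted p = 0.25) and mdm2, the ligase that degrades p53, had 6.82 and 6.99 in OF + R and 6.51 and 5.85 in R (0.66), both looked at after their values were seen. Of 33 apoptosis genes 0 were called (1 higher and 3 lower at an unadjusted p under 0.05) with a median of -0.02, and of 58 cell cycle genes 0 (3 and 2) with a median of -0.02. Of 31 stress MAP kinase genes 0 were called (4 and 0), with a median of 0.41 that was 0.08 under either quantile normalization (of all arrays together or by batch). For these calls the adjusted p without replicate 2 of OF + R was 0.27 for ccng1, 0.15 for plk3, 0.33 for ei24 and 0.47 for sesn3. ccng1 and sesn3 were also lost without replicate 1 of R (0.096 and 0.30), ei24 without replicate 2 of R (0.089), and plk3 without replicate 2 of R (0.16) or replicate 1 of OF + R (0.12).

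DNA repair genes rose in 4 of 40 cases (10.0%, against 4.06% of all genes) and fell in 0, with a median of 0.22. Under quantile normalization, over all arrays or by batch, 1 of the 40 was called higher, with medians of 0.15 and 0.11. rad50, of the complex that senses broken ends, had 4.55 and 4.45 in OF + R and 2.92 and 3.43 in R (1.33, adjusted p = 0.043). The nuclease gene dclre1c, or Artemis, had 4.36 and 4.70 in OF + R and 3.34 and 3.43 in R (1.15, adjusted p = 0.029), the ligase gene lig3 had 4.91 and 5.23 in OF + R and 4.18 and 4.23 in R (0.86, adjusted p = 0.041), and prkdc, the kinase of end joining, had 2.88 and 3.47 in OF + R and 2.14 and 2.5 in R (0.85, adjusted p = 0.033). These changes were small and at modest signals, prkdc being close to the array median in R. The other probe set of dclre1c had 0.06 and that of lig3 0.63. Leaving out replicate 2 of OF + R gave the 4 genes adjusted p values of 0.21 to 0.38, and leaving out replicate 1 of R gave 0.098 to 0.21. rad50 was also lost without replicate 1 of OF + R (0.12), and dclre1c and lig3 without replicate 2 of R (0.053 and 0.075).

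Genes that the study followed by qPCR, or relatives of them, were looked up on the arrays. The entries casp3a, bada, fasn, hsd11b1a, asgr1 and zhi were not matched to a measured gene. lpin1a and hsd11b2 were included, although the study names plpp1a for pap and measured 11b-hsd1, and plpp1a was not looked up. 24 were measured, 2 rose (ddah1 and hnf4a, 8.33% against 4.06% of all genes) and 0 fell, with a median of 0.55. As that list follows the study's own choice of genes, it is not independent evidence of a direction. Its median was -0.03 without replicate 2 of OF + R, where 0 were called, and 0 were also called under either quantile normalization. ddah1, which breaks down methylated arginine, had 7.21 and 8.21 in OF + R and 5.49 and 6.15 in R (1.89, standard error 0.43, adjusted p = 0.026, and 0.31 without replicate 2 of OF + R and 0.14 without replicate 1 of R). Death and stress genes were not called. casp8, the initiator caspase, had 5.52 and 5.59 in OF + R and 4.82 and 4.41 in R (adjusted p = 0.22), baxa 5.32 and 3.84 in OF + R and 4.44 and 3.88 in R (0.75), badb 2.42 and 2.77 in OF + R and 2.72 and 2.35 in R (0.95), faslg 1.97 and 1.75 in OF + R and 1.68 and 2.49 in R (0.68), and mapk14a, the p38 kinase, 5.41 and 5.19 in OF + R and 5.37 and 3.69 in R (0.33). The faslg values in OF + R were below the array medians, and the other probe set of casp8 had a log2 fold change of -0.16. Of the JNK genes, mapk8a had 4.2 and 4.01 in OF + R and 4.36 and 4.38 in R (-0.26, adjusted p = 0.50) and mapk8b had 5.54 and 5.68 in OF + R and 5.64 and 5.91 in R (-0.17, adjusted p = 0.69). Proliferation genes were dim in both groups, as cdk1 had 1.56 and 1.61 in OF + R and 2.04 and 1.54 in R, ccne1 had 1.74 and 2.16 in OF + R and 2.37 and 1.80 in R, and cdk2 had 2.17 and 3.39 in OF + R and 2.55 and 2.42 in R. Of the lipid and steroid genes in that list, pparg, lpin1a, mlxip, agpat4, hsd11b1la and hsd11b2 had adjusted p values of 0.095 (mlxip) to 0.88 (hsd11b2), and tdo2a, a tryptophan dioxygenase gene, had 10.35 and 10.76 in OF + R and 10.10 and 10.90 in R (0.96).

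With all arrays in the fit no fibrosis gene was called lower. Of 63 collagen and fibrosis genes 2 rose (3.17%, against 4.06% of all genes) and 0 fell, and the median was 0.19. It was -0.06 without replicate 2 of OF + R. Leaving out replicate 2 of R, 4 were called higher and 3 lower, and leaving out replicate 1 of R, 1 was called in each direction. The collagen gene col1a1a had 3.10 and 5.15 in OF + R and 2.5 and 4.50 in R (0.63, adjusted p = 0.73) and col1a1b had 3.09 and 4.78 in OF + R and 2.85 and 3.80 in R (0.61, adjusted p = 0.55). Replicates of each group differed by more than the group means did in col1a1a and col1a1b. The other probe set of col1a1a had 0.70 and that of col1a1b -0.05. ccn2a, the connective tissue growth factor gene, had 2.02 and 2.35 in OF + R and 4.51 and 2.34 in R (-1.23, adjusted p = 0.26), a gap carried by replicate 1 of R, and without replicate 2 of R it was called at -2.32 (adjusted p = 0.020). hpse, heparanase, had 1.62 and 1.82 in OF + R and 1.61 and 1.54 in R, below the median signal on every array. timp2b, an inhibitor of matrix metalloproteinases, had 6.13 and 6.58 in OF + R and 3.61 and 3.80 in R (2.65, standard error 0.32, adjusted p = 0.00058), called in every omission, and mmp14b, a membrane-bound metalloproteinase, had 6.55 and 7.09 in OF + R and 3.48 and 5.29 in R (2.44, standard error 0.47, adjusted p = 0.011, and 0.13 without replicate 2 of OF + R and 0.082 without replicate 1 of R). timp2b and mmp14b encode partners in the control of matrix breakdown. Of 22 stellate cell and fibroblast markers 0 were called (0 higher and 0 lower at an unadjusted p under 0.05).

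Proteasome genes were mostly positive. Of 46 proteasome genes 40 were positive, against 54.8% of all genes. In this list 4 rose (8.7%, against 4.06% of all genes), 0 fell and the median was 0.49. psmc6, an ATPase of the regulatory particle, had 6.65 and 7.35 in OF + R and 4.82 and 5.30 in R (1.94, standard error 0.36, adjusted p = 0.0081), and psmc2, another ATPase, had 6.62 and 6.86 in OF + R and 5.23 and 5.26 in R (1.50, adjusted p = 0.040). Of the core particle, psmb2 had 7.19 and 8.11 in OF + R and 6.42 and 6.55 in R (1.17, adjusted p = 0.044) and psma4 had 6.14 and 6.60 in OF + R and 5.37 and 5.51 in R (0.93, adjusted p = 0.033). The median of the list was 0.46 to 0.60 with each array left out, but psmc2 was called in none of the omissions. With quantile normalization of all arrays together its median was 0.16, and by batch 0.17, and 1 gene was called higher in either case. The adjusted p of the 4 genes without replicate 2 of OF + R was 0.13 to 0.46. psmb2 and psma4 were also lost without either R array (0.051 to 0.14).

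Of 41 autophagy and lysosome genes 5 rose (12.2%, against 4.06% of all genes) and 0 fell, 33 were positive and the median was 0.61. ulk1b, a kinase gene that starts autophagy, had 5.82 and 6.48 in OF + R and 3.57 and 4.41 in R (2.16, standard error 0.38, adjusted p = 0.0063), and atg13, its partner, had 7.29 and 7.90 in OF + R and 6.09 and 6.85 in R (1.13, adjusted p = 0.026). atg2b, which feeds lipid to the growing autophagosome, had 6.49 and 6.65 in OF + R and 4.50 and 4.60 in R (2.02, standard error 0.35, adjusted p = 0.0060). Of lysosomal enzymes ctsa, cathepsin A, had 7.29 and 7.97 in OF + R and 5.74 and 6.02 in R (1.75, standard error 0.28, adjusted p = 0.0036). Both OF + R arrays exceeded both R arrays by over 1 log2 unit in ulk1b, atg2b and ctsa. The fifth, named outside the rule, was ctsk, cathepsin K (2.32, adjusted p = 0.043). Excluding replicate 2 of OF + R, the adjusted p was 0.10 for ulk1b, 0.31 for atg13, 0.067 for atg2b and 0.065 for ctsa, and atg13 was also lost without replicate 1 of R (0.19).

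In the mitochondrial, translation, chaperone and growth lists the share of genes called was near the 4.06% of all genes. Of 92 respiratory chain genes 4 rose (4.35%) and 0 fell with a median of 0.29. Under quantile normalization its median was 0.01, with 1 gene called higher and 2 lower with all arrays pooled and 0 higher and 2 lower by batch. cox4i1, a subunit of cytochrome oxidase, had 9.87 and 10.59 in OF + R and 8.42 and 9.58 in R (1.24, adjusted p = 0.026), and its isoform cox4i2 had 6.45 and 7.87 in OF + R and 4.22 and 4.45 in R (2.83, standard error 0.70, adjusted p = 0.036). uqcrc2a of complex III (1.38, adjusted p = 0.020) and sdhdb of complex II (1.17, adjusted p = 0.035) also rose. The second probe set of sdhdb had -0.07 and that of cox4i1 0.01. Excluding replicate 2 of OF + R, the 4 genes had adjusted p values of 0.25 to 0.35, and without replicate 1 of R cox4i1 (0.21), cox4i2 (0.12) and sdhdb (0.16) were lost. Without replicate 2 of R cox4i2 (0.065) and uqcrc2a (0.10) were lost. Of 34 tricarboxylic acid cycle genes 0 were called (9 higher and 2 lower at an unadjusted p under 0.05). Of 83 entries caught as ribosomal protein genes the only call was rps19bp1 (1.64, adjusted p = 0.012), whose product binds a ribosomal protein and is not one. Of 56 ribosome biogenesis genes 48 were positive with a median of 0.42 (0.08 under either quantile normalization), and myca, a Myc gene (1.85, adjusted p = 0.033), and imp3 (1.79, adjusted p = 0.011) rose. gars1, a tRNA synthetase (1.01, adjusted p = 0.045), hspa4b, a chaperone (1.28, adjusted p = 0.029), and insra, the insulin receptor (1.24, adjusted p = 0.025), rose alone or with igfbp5b in lists of 19, 35 and 42 genes. Of the 19 tRNA synthetases 17 were positive with a median of 0.45 (0.11 and 0.12 under quantile normalization), and of the 42 genes of the insulin and growth axis 33 were positive with a median of 0.48 and 12 higher and 0 lower at an unadjusted p under 0.05. All of these lost their call without replicate 2 of OF + R (0.095 to 0.29) except myca, which lost it without replicate 1 of OF + R (0.23) or replicate 2 of R (0.14). Of 32 endoplasmic reticulum chaperone genes 0 were called (4 higher and 0 lower at an unadjusted p under 0.05), of 42 clock genes 0 (7 and 1), and of 13 genes of the aryl hydrocarbon receptor and CYP1 0 (2 and 0).

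**Figure D4:**
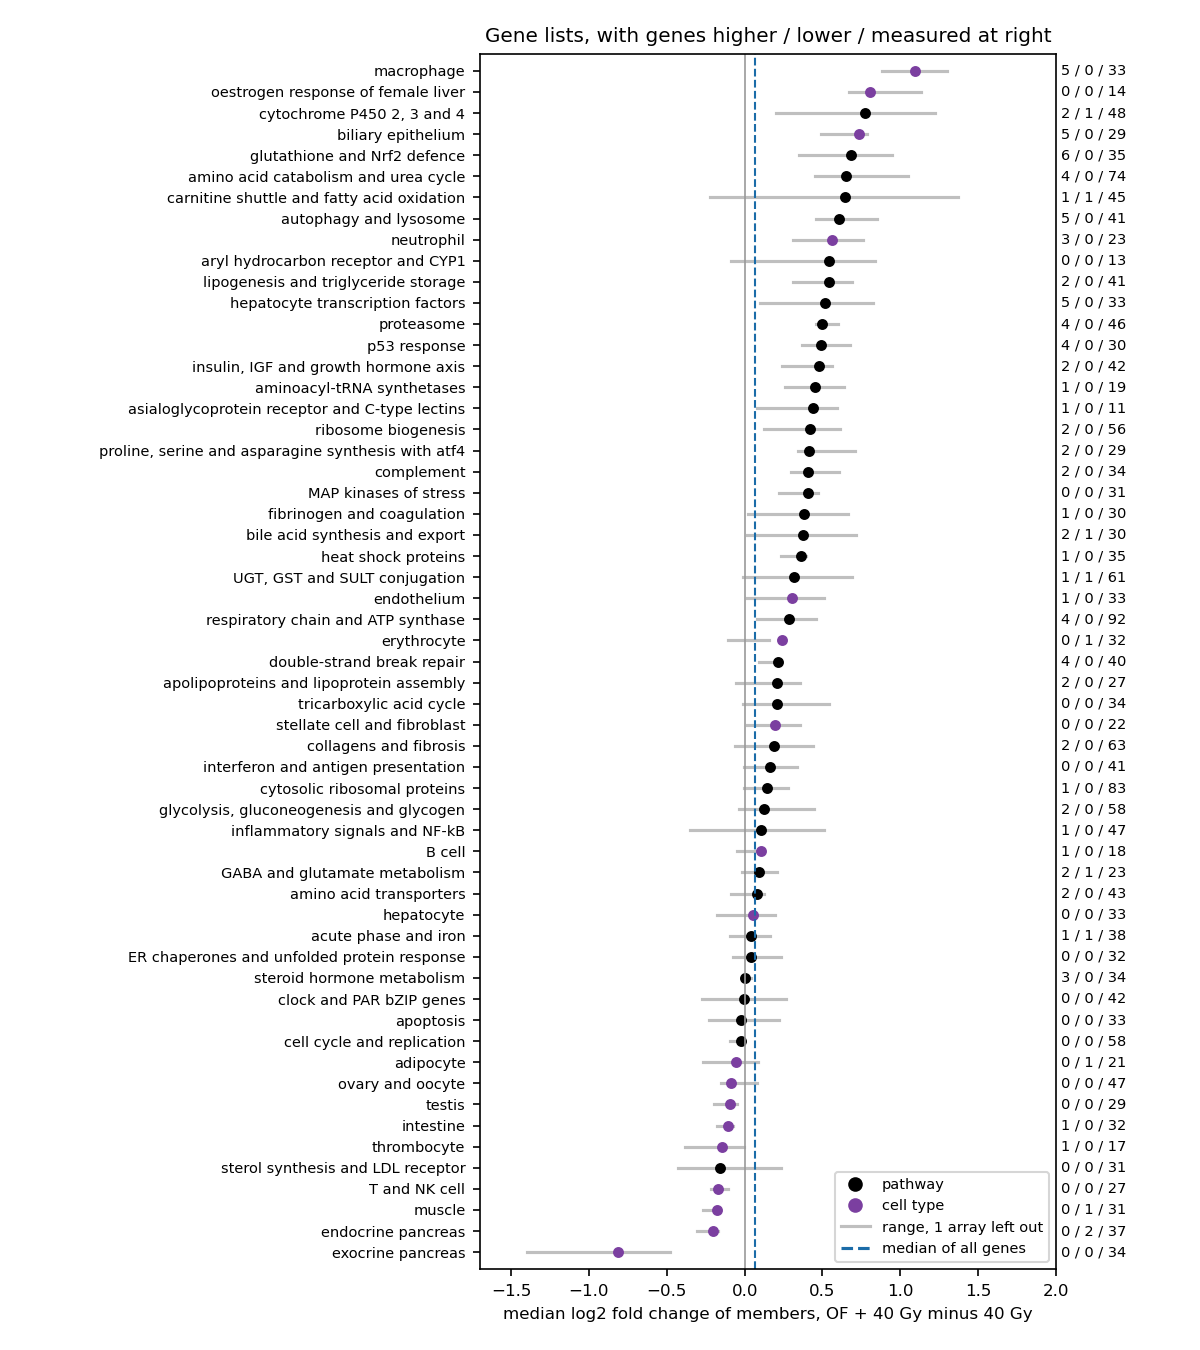
Median log2 fold change of OF + R minus R in WT liver for each pathway list (black) and cell type list (purple), with the lowest to highest median when 1 array is left out (grey line, which need not hold the value from all arrays) and the median of all genes (dashed line, 0.07). Macrophage markers have the highest median (1.09) and exocrine pancreas genes the lowest (-0.81), and the numbers at right are the members called higher, called lower and measured.

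Pancreas, muscle and intestine markers mostly had negative log2 fold changes with few calls. Of all genes 4.06% were called higher and 0.755% lower. Of 21 adipocyte and 32 erythrocyte markers, 10 and 17 were positive. Of 34 exocrine pancreas genes 4 were positive and the groups did not overlap, OF + R being lower, in 20, against 21.1% of all genes, but 0 were called (1 higher and 6 lower at an unadjusted p under 0.05). prss1, a trypsin gene, had 4.58 and 5.24 in OF + R and 6.06 and 7.95 in R (adjusted p = 0.31), named after its values were seen. Of 37 endocrine pancreas genes scg5 and scg2a, both granule proteins of secretory cells, fell at signals below the array medians in OF + R. Neither was called without replicate 2 of OF + R (0.19 and 0.23), without its replicate 1 (0.10 and 0.13) or without replicate 1 of R (0.24 and 0.18), and scg2a was lost without replicate 2 of R (0.054). mb, myoglobin, was the called member of 31 muscle genes, with 6.06 and 5.99 in OF + R and 7.60 and 9.20 in R (-2.38, standard error 0.57, adjusted p = 0.031, and 0.18 without replicate 2 of R, 0.20 without replicate 2 of OF + R and 0.080 without its replicate 1). Of 21 adipocyte genes lepa, a leptin gene, fell, with 1.64 and 1.76 in OF + R and 3.82 and 3.18 in R (-1.80, standard error 0.23, adjusted p = 0.0010). In OF + R it lay below the array median, and leptin of fish is made in liver as well. slc4a1a, the anion exchanger of red cells, had 1.90 and 2.00 in OF + R and 3.91 and 5.02 in R (-2.52, standard error 0.35, adjusted p = 0.0015), and was the only call of 32 erythrocyte genes. The haemoglobin gene hbaa1, named after its values were seen, had 8.26 and 8.25 in OF + R and 7.41 and 8.27 in R. lepa and slc4a1a were called in every omission. Of 14 oestrogen-responsive liver genes 13 were positive with a median of 0.81 and 0 were called (1 higher and 0 lower at an unadjusted p under 0.05). The yolk precursor vtg4 had 9.21 and 8.83 in OF + R and 5.64 and 7.19 in R (2.61, adjusted p = 0.36). cdh17, an intestinal cadherin gene, rose, with 5.95 and 7.17 in OF + R and 4.48 and 4.08 in R (2.28, adjusted p = 0.018, and 0.25 without replicate 2 of OF + R and 0.059 without replicate 2 of R), and was the only call of 32 intestinal genes.

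The effect in WT fish was then set against that in HBx,src DIO fish at the same dose and batch, which share no arrays with them. There 432 genes (2.09%) were higher and 47 (0.227%) lower with Oligo-Fucoidan. Of the 840 genes higher in WT, 144 were also called higher in HBx,src DIO and 711 were positive, with a median of 0.49. Of the 156 lower genes, 4 were called lower there and 109 were negative, with a median of -0.10. The difference between the effects was called in 47 genes (0.227%), 36 with a higher (0.174%) and 11 with a lower effect (0.0532%) in WT. Genotype and diet differ between these fish and the sex of the WT fish is not stated, so their parts in the difference cannot be told apart.

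Of the genes called in WT, ppp1r14ab had the clearest difference, at 3.13 in WT and -0.81 in HBx,src DIO on the log2 scale (difference 3.94, standard error 0.28, adjusted p = 3.8e-06). mmp14b had 2.44 in WT and -0.90 in HBx,src DIO (3.34, standard error 0.59, adjusted p = 0.028), igfbp5b had 3.40 in WT and 0.09 in HBx,src DIO (3.31, standard error 0.57, adjusted p = 0.026), and p3h3, which encodes a hydroxylase of collagen proline, had 3.00 in WT and 0.07 in HBx,src DIO (2.93, standard error 0.56, adjusted p = 0.045). In WT p3h3 had 5.86 and 5.22 in OF + R and 2.96 and 2.12 in R, but its other probe set had a log2 fold change of 0.25. Of these, igfbp5b and p3h3 were near 0 in HBx,src DIO. Among the lower genes, tlr18 had -3.21 in WT and 0.50 in HBx,src DIO (-3.71, standard error 0.43, adjusted p = 0.0017), slc4a1a had -2.52 in WT and 0.12 in HBx,src DIO (-2.64, standard error 0.44, adjusted p = 0.022) and daam1b, a formin gene of actin assembly, had -1.28 in WT and 0.97 in HBx,src DIO (-2.25, standard error 0.42, adjusted p = 0.035). In WT daam1b had 6.61 and 6.49 in OF + R and 7.99 and 7.67 in R, and its WT call was lost in each omission. lepa had -1.80 in WT and -0.13 in HBx,src DIO (-1.67, adjusted p = 0.028). The macrophage genes had a median of 0.08 in HBx,src DIO against 1.09 in WT, where the R arrays were the dimmest of the series for this list. Yet the differences of mfap4.2, mpeg1.2, ccl34a.4 and grna.1 had adjusted p values of 0.11 to 0.29. hsd11b1lb (2.27 in WT and 2.14 in HBx,src DIO), pycr1b (2.01 in WT and 1.6 in HBx,src DIO), hnf4a (1.39 in WT and 1.24 in HBx,src DIO), cox4i1 (1.24 in WT and 1.21 in HBx,src DIO) and atg13 (1.13 in WT and 1.1 in HBx,src DIO) had close values in both kinds of fish, the differences having adjusted p values of 0.83 to 0.99, which does not show that they were equal.

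**Figure D5:**
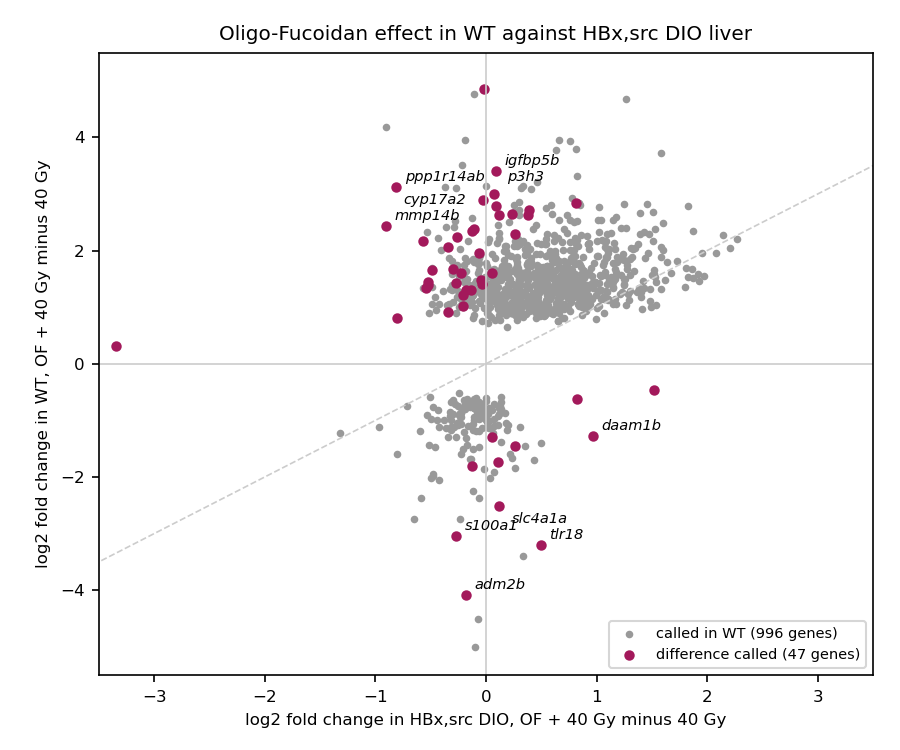
Log2 fold change of OF + R minus R at 40 Gy in WT (y axis) and in HBx,src DIO liver (x axis), for the genes called in WT (grey) and those whose difference between the fish was called (magenta), with a dashed line of equal change. The gap in the cloud around 0 on the y axis comes from the choice of genes called in WT, and ppp1r14ab and mmp14b lie left of 0 on the x axis while tlr18 and daam1b lie right of it.

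WT fish given Oligo-Fucoidan before 10 Gy showed another pattern. In that batch 538 genes (2.6%) were higher and 1361 (6.59%) lower. Of the 840 genes higher at 40 Gy, 35 were also called higher at 10 Gy, 557 were positive and the median was 0.20, and of the 156 lower genes 4 were called lower and 95 were negative. The difference between the doses was called in 1432 genes (6.93%). Among the genes named above, aldh18a1 had 1.11 at 40 Gy and -2.04 at 10 Gy, fads2 had 3.15 at 40 Gy and -2.77 at 10 Gy, plk3 had 2.44 at 40 Gy and -3.64 at 10 Gy and adam8a had 2.68 at 40 Gy and -2.49 at 10 Gy. gad1a had 3.11 at 40 Gy and 2.82 at 10 Gy, s100a1 had -3.05 at 40 Gy and -3.15 at 10 Gy and slc16a3b had -2.38 at 40 Gy and -3.94 at 10 Gy, on the same side at both doses. Dose and batch change together here. List medians at 40 and 10 Gy were alike for glutathione and Nrf2 (0.68 and 0.64), hepatocyte transcription factors (0.52 and 0.55) and lipogenesis (0.54 and 0.46). Macrophage markers had 1.09 and 0.54. Other lists took opposite signs, as ribosome biogenesis (0.42 and -0.60) and double-strand break repair (0.22 and -0.74). The ovary and oocyte list had a median of -4.04 at 10 Gy against -0.09 at 40 Gy. The 14 oestrogen-responsive liver genes had a median of -7.41 at 10 Gy against 0.81 at 40 Gy. At 10 Gy their mean log2 signal was no lower than 9.8 on any R array and no higher than 5.1 on any OF + R array. The sex of the WT fish is not stated, and its part in the 10 Gy effect was not tested. Dose, batch, oestrogen response and tissue content therefore cannot be told apart.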

How the data were processed

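RNA of zebrafish liver was hybridised to ZebGene 1.1 ST arrays, and the authors deposited log2 signals, normalized over probe sets with the Transcriptome Analysis Console, whose version is not given in the sources used here. These log2 values were used as deposited, since no raw intensities were used here. Their precision is limited by the number of arrays.

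Groups came from the sample titles. The package limma (version 3.58.1, under R 4.3.3) fitted 1 model of 8 group means to all 23 arrays, with 15 residual degrees of freedom, and gave OF + R minus R in WT at 40 Gy, the same effect in HBx,src DIO at 40 Gy and in WT at 10 Gy, and the differences between these effects. The spread was pooled over the 8 groups, HBx,src,p53- DIO at 10 Gy among them. On the OF + R arrays of that genotype the mean signal of the oestrogen-responsive genes ran from 5.22 to 10.40. Benjamini-Hochberg adjustment ran over all 75212 probe sets, and a gene was called at an adjusted p under 0.05. Of the probe sets, 29528 had 1 gene symbol, 1845 had several and 43839 had none in the annotation used, and 1 symbol was updated through its gene ID. A gene took the value of its brightest probe set. Where a named gene's other probe sets disagreed, this is given for some genes only, so silence does not mean agreement. Among those not given above, the other probe sets had 0.29 for btk, 0.53 for atg2b and -0.07, 0.55 and 0.78 for insra. No 2 of the 4 arrays were copies of each other. Input was read with data.table in version 1.17.8. Lists and counts came from pandas 2.3.3 with numpy 2.4.6 under python 3.11.15, and plots from matplotlib 3.10.9.

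On simulated data for OF + R minus R in WT, with 75212 probe sets, the fit called 8% of changes of 1 on the log2 scale and 40% of changes of 2. It called 4% of changes of -1 and 36% of changes of -2, with 2 false calls. Each size was given to 50 probe sets above the median signal, with independent normal noise. In the data 1409 probe sets were called higher and 813 lower, which alters the adjustment, so these percentages may not carry over to the data.

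Named genes were the 15 largest called changes in each direction without overlap between groups, up to 4 members with the smallest p in each of 58 gene lists, the study's qPCR genes and the 5 largest called differences from HBx,src DIO in each direction, provisional symbols left out. Genes outside it are said to be so. The members and lists were chosen with earlier results of these data known. Alternatives changed the arrays in the fit, the scaling, the filter and floor for dim probe sets, the variance prior, array weights, the probe set rule, the replicate block and the thresholds, and left out each WT array at 40 Gy in turn. A description of promoter motifs was not run, as no sequence table was used here.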

Additional observations from a re-analysis of the deposited data

Results flagged for a closer look

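For 11 named genes the effect of Oligo-Fucoidan at 40 Gy differed between WT and HBx,src DIO livers by limma's test of the difference (adjusted p under 0.05). The effect was higher in WT for ppp1r14ab (difference 3.94 on the log2 scale, adjusted p = 3.8e-06), mmp14b (3.34, 0.028), igfbp5b (3.31, 0.026), p3h3 (2.93, 0.045) and cyp17a2 (2.92, 0.012).

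It was lower in WT for adm2b (-3.91, adjusted p = 0.0083), tlr18 (-3.71, 0.0017), s100a1 (-2.78, 0.0033), slc4a1a (-2.64, 0.022), daam1b (-2.25, 0.035) and lepa (-1.67, 0.028). adm2b had a log2 fold change of -4.09 in WT and -0.18 in HBx,src DIO, s100a1 had -3.05 in WT and -0.27 in HBx,src DIO, and cyp17a2 had 2.89 in WT and -0.03 in HBx,src DIO. Genotype, diet and the signal of oestrogen-responsive genes differ, and the sex of the WT fish is not stated. These cannot be told apart in this difference.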

How the results depend on the processing

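No named gene that was called changed direction under an alternative. Of 58 list medians, 24 changed sign when some array was left out (12 of them without replicate 2 of OF + R, as for fatty acid oxidation at -0.22) and 12 under another scaling. For OF + R minus R in WT (840 genes higher and 156 lower), the 4 arrays alone gave 0 and 0, the 11 arrays of the first batch 108 and 26, array weights 259 and 45, an adjusted p under 0.01 190 and 27, and the study's thresholds 1970 and 280. Quantile normalization gave 414 higher genes over all arrays, and within each batch 239 higher and 96 lower. By list, it called 4 and 2 genes higher for glutathione and Nrf2, and 4 and 2 for macrophage markers. It called 3 and 3 for hepatocyte transcription factors, and 3 and 3 for autophagy and lysosome. Centred arrays gave 78 and probe sets above the median 49 lower genes. A floor at the array median, which leaves floored values with little spread, gave 2208 and 3887. Leaving out 1 array gave 127 to 1099 higher genes and 21 to 392 lower genes.

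With the replicate number within a batch as a block, 284 genes were higher and 31 lower, and 65 of the 113 named calls were lost. The difference from HBx,src DIO was then called in 5 and 1 genes, and that from 10 Gy in 118 lower genes. The deviations of same-numbered arrays in the WT 40 Gy pairs correlated at 0.155, and the labels do not say what a number shares.

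For the difference from HBx,src DIO (36 higher and 11 lower), the 11 arrays gave 4 and 7, quantile normalization over all arrays 61 and 44, probe sets above the median 17 and 5, array weights 7 and 5, the floor 86 and 47, quantile normalization within each batch 18 higher and a trended prior 21 higher. Leaving out 1 array gave 38 to 115 and 8 to 101, and 105 to 284 genes for the lower difference from 10 Gy (184).

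Of the 113 named calls, 38 were lost with quantile normalization over all arrays, 54 within each batch, 65 with array weights, 91 with the 11 arrays and 95 without replicate 2 of OF + R. In the simulation, with 2 arrays a group, changes of 1 or -1 on the log2 scale were rarely called.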
